A study of Homo sapiens with 64 samples.

Results

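The mitochondrial genome (chrM) and its nuclear copy on chromosome 1 were followed through 24 peak lists of chromatin immunoprecipitation with sequencing (ChIP-seq). A peak is a stretch of DNA where the peak caller found reads to be enriched. All peaks on chrM were taken, and with them the chromosome 1 peaks that lie entirely within a window of 7 kb on the human assembly hg19, in which they run from 564625 to 570258. This gave 264 mitochondrial and 72 chromosome 1 peaks, together 336 (13.8%) of the 2442 peaks in all lists. No measured value other than position chose them.

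U2OS is an established human osteosarcoma line, and shTUBG U2OS is the same line with stable expression of an shRNA that lowers γ-tubulin. Cells were asynchronous or were collected 3, 7 or 9 h after release from a double thymidine block, which holds cells at the start of S phase. Chromatin cut with micrococcal nuclease was precipitated with a mixture of rabbit polyclonal antibodies to γ-tubulin, a monoclonal antibody to PCNA, and rabbit polyclonal antibodies to Mcm5 and FoxM1. U2OS had lists for all 4 antibodies (16 lists) and shTUBG U2OS for γ-tubulin and PCNA (8 lists). The labels give 2 samples per group, 64 in all, of which 48 were immunoprecipitates and 16 inputs, but each list pools both samples of its group. The values below therefore have no replicate error, the unit of every test is a list, and lists of the same line and time share their input samples. Lists held 17 to 244 peaks, and the read depth behind them is unknown.

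The mitochondrial genome is a small circular DNA present in many copies per cell. It encodes 2 rRNAs (MT-RNR1 and MT-RNR2), tRNAs and subunits of the respiratory chain complexes and of ATP synthase, and its non-coding control region holds the promoters and an origin of replication. It carries no histones and is copied inside the organelle by its own polymerase and helicase. Pieces of it have been inserted into the chromosomes during evolution, and the piece at the start of chromosome 1 is long and nearly identical to its source, so that short reads can be placed on either. PCNA is the sliding clamp of nuclear DNA replication, Mcm5 is a subunit of the nuclear replicative helicase, FoxM1 is a transcription factor of the cell cycle, and γ-tubulin nucleates microtubules and is also found in the nucleus.

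The nuclear copy is annotated by RefSeq on GRCh38.p14 as a row of pseudogenes in the mitochondrial gene order, MTND1P23, MTND2P28, MTCO1P12, MTCO2P12, MTATP8P1, MTATP6P1 and MTCO3P12, with the microRNA gene MIR12136 between MTCO1P12 and MTCO2P12. The peaks are on hg19, so these positions were not transferred to them. The sequences below are those of annotated features on this part of GRCh38.p14, shown to give the kind of sequence found there, and no peak was placed on them. The hairpin of MIR12136 is at chr1:632615-632685 on the minus strand of GRCh38.p14 and hsa-miR-12136 is cut from its 5′ end, with the seed (bases 2 to 8) in capitals. The last sequence spans the start of the RefSeq gene LOC101928626 at chr1:628960-629259, minus strand of GRCh38.p14, and only its capitals, 198 bases, overlap MTND1P23, the pseudogene copy of the complex I subunit gene MT-ND1.
MIR12136 hairpin: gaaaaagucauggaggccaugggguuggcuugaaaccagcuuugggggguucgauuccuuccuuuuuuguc
hsa-miR-12136: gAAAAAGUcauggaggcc
LOC101928626 start region: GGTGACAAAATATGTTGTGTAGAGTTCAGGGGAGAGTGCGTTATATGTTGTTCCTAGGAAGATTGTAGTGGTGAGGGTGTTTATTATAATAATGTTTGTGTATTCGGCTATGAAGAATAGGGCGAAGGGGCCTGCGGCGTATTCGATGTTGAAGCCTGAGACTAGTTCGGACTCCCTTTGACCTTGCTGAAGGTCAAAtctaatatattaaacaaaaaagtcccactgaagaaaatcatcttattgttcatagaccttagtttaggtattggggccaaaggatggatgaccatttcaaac

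Mitochondrial peaks were found in all 24 lists, and in U2OS they took a pair of forms. With γ-tubulin and Mcm5 a few wide peaks covered nearly the whole genome, whereas with PCNA and FoxM1 many narrow peaks covered part of it. Covered length below is the share of the 16571 bp of chrM (the highest peak end in any list) that lies in at least 1 peak, and times are given in the order asynchronous, 3, 7 and 9 h. γ-Tubulin had 5, 3, 5 and 3 mitochondrial peaks, which covered 97.1, 98.7, 97.0 and 99.2% of chrM. Mcm5 had 8, 4, 5 and 2 peaks, which covered 91.8, 98.2, 97.5 and 98.8%. PCNA had 22, 17, 17 and 24 peaks, which covered 59.9, 66.6, 48.1 and 61.0%. FoxM1 had 16, 16, 16 and 18 peaks, which covered 68.7, 78.8, 75.7 and 65.7%. At every time each γ-tubulin and Mcm5 list therefore had fewer peaks and more covered DNA than each PCNA and FoxM1 list, with no overlap between these pairs of antibodies.

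**Figure D1:**
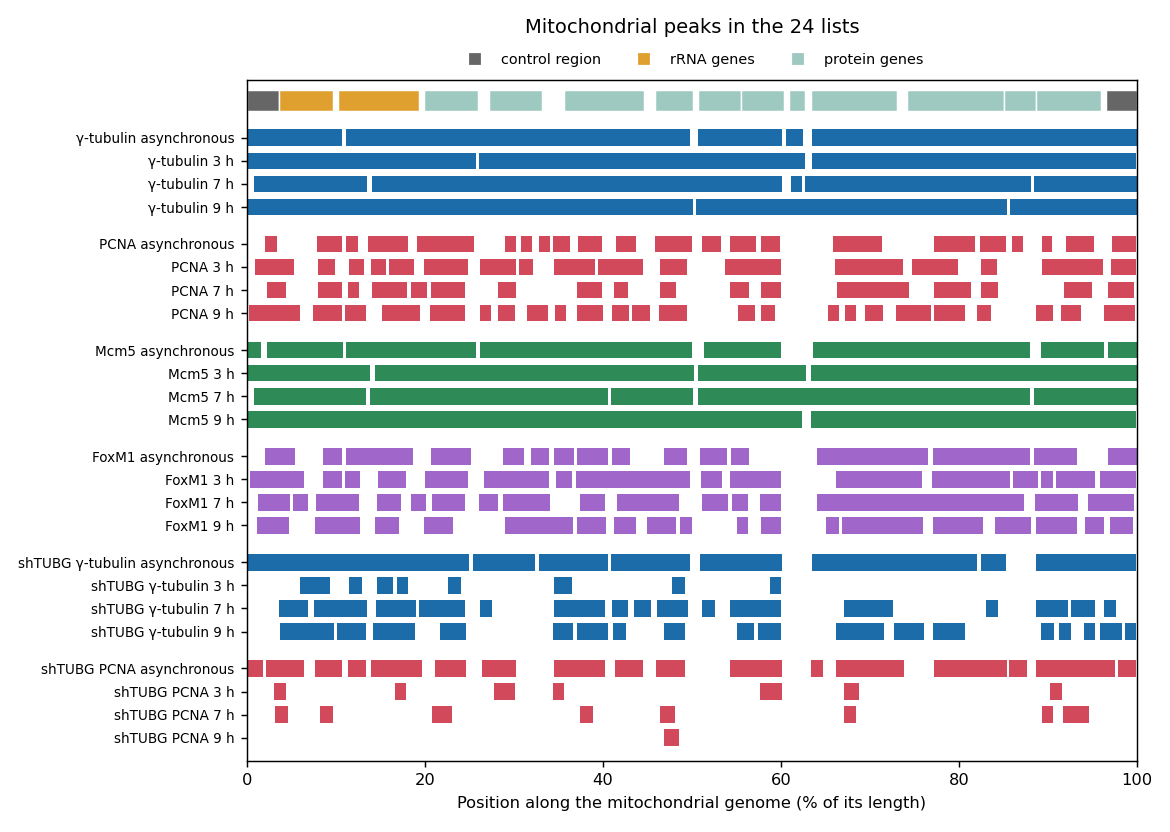
Mitochondrial peaks of each list (rows) along chrM, in percent of its length from the first numbered base (x axis), coloured by antibody, with the control region, rRNA genes and protein genes drawn at the top from a map with rounded borders. Bars of γ-tubulin and Mcm5 in U2OS run over 91.8 to 99.2% of the genome, while those of shTUBG U2OS PCNA at 9 h cover 1.60%.

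The antibodies differed in U2OS by an exact permutation test of the antibody names within each time. The number of peaks differed (means of 4 for γ-tubulin, 4.75 for Mcm5, 16.5 for FoxM1 and 20 for PCNA, adjusted p = 0.000868 over 4 measures, exact permutation test), as did the covered length (means of 98.0, 96.6, 72.2 and 58.9%, adjusted p = 0.000868, exact permutation test). Median peak width was 1752, 6032, 2104 and 5786 bp for γ-tubulin and 1428, 4107, 2082 and 8188 bp for Mcm5. It was 410.5, 665, 367 and 358.5 bp for PCNA and 522, 692.5, 541.5 and 540 bp for FoxM1. The narrowest median among the γ-tubulin and Mcm5 lists, 1428 bp, was thus above the widest of the PCNA and FoxM1 lists, 692.5 bp, and width differed between antibodies (adjusted p = 0.00362, exact permutation test). The call on number was also lost when the lower-scoring peaks of each list, those under its median, were dropped (range of means 4.75, adjusted p = 0.0667, exact permutation test). When peaks of a list within 1000 bp of each other were merged, none of these differences passed the threshold (adjusted p = 0.25 for the number and 0.186 for covered length and width, exact permutation tests).

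**Figure D2:**
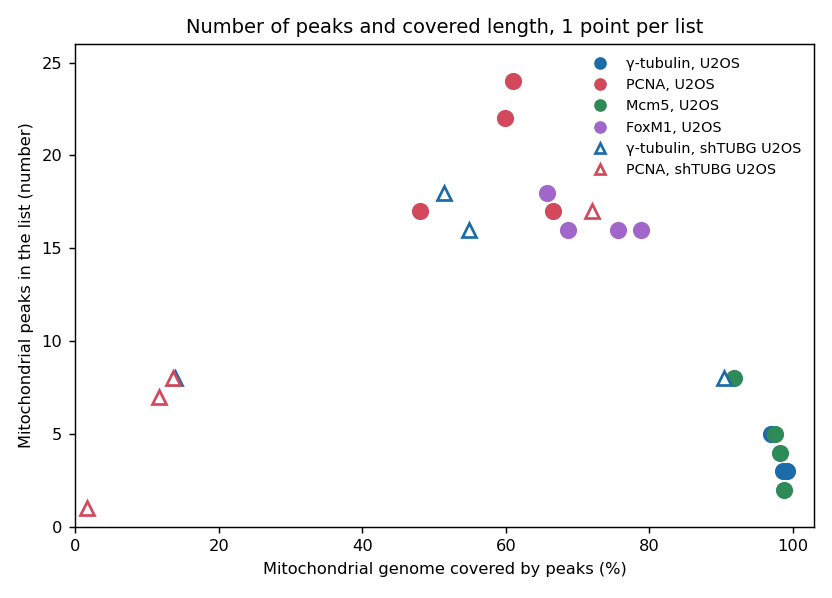
Number of mitochondrial peaks (y axis) against the percent of chrM covered (x axis), 1 point per list, circles for U2OS and open triangles for shTUBG U2OS. Lists with over 90% covered have 2 to 8 peaks, lists between 48.1 and 78.8% have 16 to 24, and lists at 14.0% or less have 1 to 8.

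The wide peaks can be given in full. γ-Tubulin at 3 h had peaks at 1 to 4256, 4329 to 10388 and 10521 to 16552 of chrM, and at 9 h at 1 to 8301, 8359 to 14144 and 14216 to 16571. Mcm5 at 9 h had peaks at 7 to 10329 and 10511 to 16563. The first of these was the widest mitochondrial peak of all lists (10323 bp) and carried a score of 466, the largest number in the score column on chrM. The score is a whole number that the authors' lists attach to each peak, and since its scale is not known to be common to the lists, nothing was read from this order. Since the molecule is a circle, the peaks of γ-tubulin at 9 h and of Mcm5 at 3 h that reach the first and the last base adjoin each other across the start of the numbering and were counted as separate peaks. Over all lists the first mitochondrial peak began at base 1 in 3 lists and the last ended at base 16571 in 5.

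The bases left out of the wide peaks lay in few places. All 8 γ-tubulin and Mcm5 lists of U2OS covered 14708 bp of chrM (88.8%) in 11 stretches, the longest from 10545 to 14144 under the complex I genes MT-ND4L, MT-ND4 and MT-ND5, and every base of chrM was covered in at least 1 of these lists. The gaps between neighbouring peaks had a median of 73 bp for γ-tubulin (12 gaps of 55 to 174 bp) and 93 bp for Mcm5 (15 gaps of 52 to 595 bp). In PCNA lists the median gap was 226 bp (76 gaps, up to 1237 bp), and in FoxM1 lists 187.5 bp (62 gaps, up to 1260 bp). Gaps of γ-tubulin and Mcm5 were thus narrow beside those of PCNA and FoxM1.

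PCNA and FoxM1 also called some places at every time. All 8 of their U2OS lists covered 3980 bp (24.02%) in 19 stretches. Among these were 12795 to 13246 in MT-ND5, 3453 to 3841 in MT-ND1, both coding for complex I subunits, and 16114 to 16493 in the control region. None of the 8 lists covered 1026 bp (6.19%), of which 659 bp lay in a single stretch from 9952 to 10610. This stretch holds MT-ND3, a complex I subunit gene that was at 0% in every PCNA and FoxM1 list of U2OS and in all 8 lists of shTUBG U2OS, and at a median of 90.7% in the γ-tubulin and 88.2% in the Mcm5 lists of U2OS, where the asynchronous list stood at 0%. MT-ND3 was covered in part or in full in 7 of 24 lists.

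Over all lists, a base of chrM was covered in 3 to 23 of the 24 lists, with a median of 17. The stretch in the most lists (23) was 7925 to 7967, 43 bp within MT-CO2, a subunit gene of cytochrome c oxidase. The list without it was that of PCNA in shTUBG U2OS at 3 h. The lowest number, 3 lists, was reached over 146 bp in 4 stretches, the longest being 10402 to 10499 (98 bp, between MT-ND3 and MT-ND4L on the rounded map) and 8323 to 8358 (36 bp, between MT-CO2 and MT-ATP8), followed by bases 1 to 6 of the numbering. The same borders also recurred. Within 20 bp, a peak ended at 16553 in 16 lists and at 9952 in 15 lists, and a peak began at 5710 in 9 lists. Position 16553 lies within 20 bp of the last base, 16571, so peaks that run to the end of the numbering are among the 16. The last peak ended at 16571 itself in 5 lists.

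By class of sequence, no difference in coverage passed the test over lists. The control region was covered to a median of 82.2% over the 24 lists (0 to 100%), the rRNA genes to 80.2% (0 to 100%) and the protein genes to 72.1% (2.34 to 99.9%). The mean difference within a list was 4.85 percentage points for rRNA genes minus protein genes (adjusted p = 0.415, sign-flip permutation test with 100000 resamples), -5.30 for control region minus rRNA genes (adjusted p = 0.415) and -0.45 for control region minus protein genes (adjusted p = 0.866). All 3 differences changed sign when only the U2OS lists were used. In the γ-tubulin lists of shTUBG U2OS the rRNA genes stood at 100, 51.7, 86.8 and 92.0%, the protein genes at 88.8, 7.35, 53.4 and 45.9%, and the control region at 96.8, 0, 15.6 and 41.9%. In these 4 lists the rRNA genes were the most covered class at every time, which was seen after the values and was not tested.

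In shTUBG U2OS less of the mitochondrial genome was covered in every list from released cells, although the test over all pairs did not pass after adjustment. Peak lists hold no expression, so the lowering of γ-tubulin itself was not checked here. For γ-tubulin the covered length in shTUBG U2OS was 90.4, 14.0, 54.9 and 51.4%, with differences from U2OS of -6.70, -84.7, -42.1 and -47.8 percentage points. For PCNA it was 72.0, 11.7, 13.7 and 1.60%, with differences from U2OS of 12.1, -54.9, -34.4 and -59.4 points. The asynchronous lists thus lay within 12.1 points of U2OS, and every released list lay below U2OS by more than that. Released lists were paired by hours after release, not by measured cycle position. The paper relates its PCNA peak numbers late after release to a reported delay of S phase in cells with lowered γ-tubulin. At equal hours the lines may therefore differ in cycle position, whose part in this and the later line comparisons was not tested. Over the 8 pairs of lists covered length was lower in 7, with a mean difference of -39.7 points (p = 0.0234, adjusted p = 0.0625 over 4 measures, two-sided exact sign-flip permutation test), which did not pass the threshold of 0.05 after adjustment. With peaks within 1000 bp merged, which counts the gaps between them as covered, the mean was -45.0 points and passed (adjusted p = 0.0469, exact permutation test). The unadjusted p stayed at 0.0234, so only the adjustment over the 4 measures had changed. Both antibodies of a line and time share input samples, so the 8 pairs are not independent. The 4 pairs of a single antibody cannot give a p below 0.13, so no single antibody could pass.

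**Figure D3:**
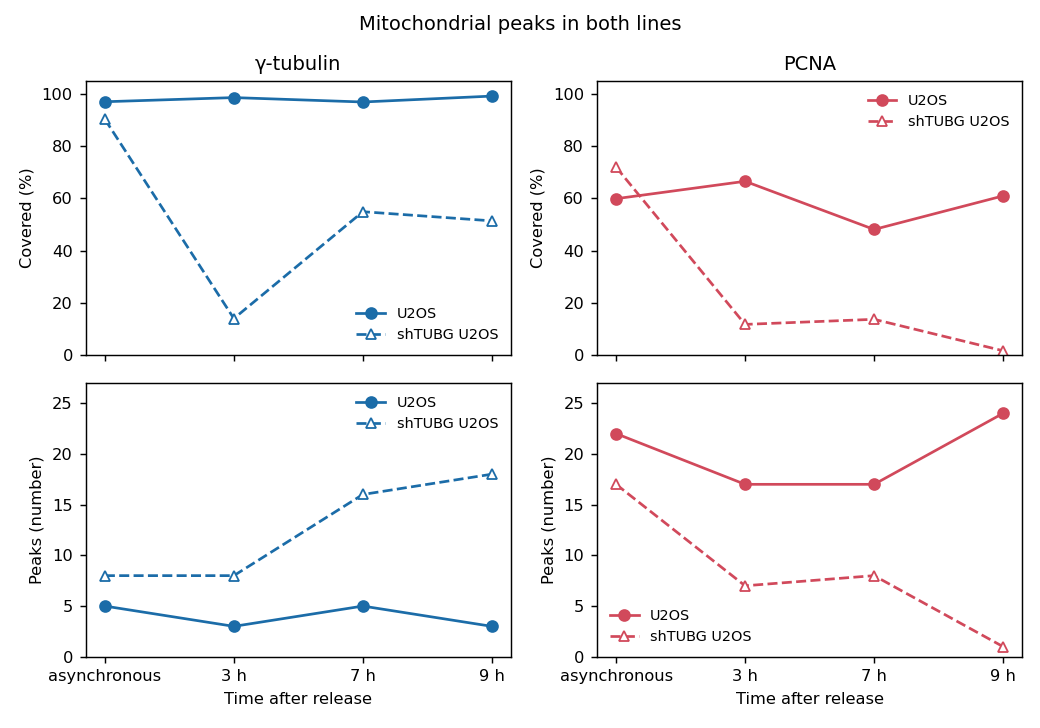
Percent of chrM covered (top) and number of mitochondrial peaks (bottom) by time in U2OS (filled circles) and shTUBG U2OS (open triangles), for γ-tubulin (left) and PCNA (right), 1 list per point. Coverage in shTUBG U2OS is near that of U2OS in asynchronous cells and lower at 3, 7 and 9 h, while the number of γ-tubulin peaks is higher and that of PCNA peaks lower at every time.

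Peak number moved in opposite directions for the antibodies. γ-Tubulin had 8, 8, 16 and 18 mitochondrial peaks in shTUBG U2OS against 5, 3, 5 and 3 in U2OS, higher at all 4 times by a mean of 8.5 (p = 0.13, exact permutation test). PCNA had 17, 7, 8 and 1 peaks against 22, 17, 17 and 24, lower at all 4 times, with a mean difference of -11.75 (p = 0.13, exact permutation test). The difference between these changes was 20.25 peaks (p = 0.13, adjusted p = 0.167, exact permutation test), the smallest p that 4 pairs allow. Over both antibodies the mean difference was -1.63 (adjusted p = 0.984, exact permutation test), and it was 1.75 once peaks within 1000 bp were merged. The larger number of γ-tubulin peaks in shTUBG U2OS thus stood beside a smaller covered length. List lengths differed as well. γ-Tubulin lists held 94, 33, 42 and 67 peaks in shTUBG U2OS against 102, 123, 75 and 153 in U2OS. PCNA lists held 87, 51, 25 and 155 against 118, 104, 17 and 130. As a share of the list, mitochondrial peaks were higher at all 4 times for γ-tubulin. For PCNA the share was lower at 3, 7 and 9 h but not in asynchronous cells (19.5 against 18.6%).

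Widths followed covered length. Median width of γ-tubulin peaks in shTUBG U2OS was 1503, 241.5, 561 and 426 bp, and that of PCNA peaks 580, 228, 243 and 265 bp. Width was lower than in U2OS in 7 of 8 pairs, with a mean difference of -1678 bp (p = 0.0313, adjusted p = 0.0625, exact permutation test). The exception was PCNA in asynchronous cells, where the median was 580 bp in shTUBG U2OS and 410.5 bp in U2OS. In shTUBG U2OS the median gap between neighbouring mitochondrial peaks was 180.5 bp for γ-tubulin and 557 bp for PCNA.

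Some stretches were shared by the shTUBG U2OS lists. All 4 γ-tubulin lists covered 2198 bp (13.3%) in 9 stretches, among them 1249 to 1538 in MT-RNR1 and 2422 to 2711 in MT-RNR2. The longest, 5718 to 6059, began before MT-CO1 on the rounded map and ended inside this gene, which codes for the catalytic subunit of cytochrome c oxidase. No γ-tubulin list of shTUBG U2OS covered 14128 to 14694 (567 bp), which spans most of MT-ND6 on the rounded map, or 9970 to 10520 (551 bp), which holds MT-ND3. At least 3 of the 4 PCNA lists covered 675 bp in 4 stretches (523 to 732, 7775 to 7967, 11118 to 11337 and 14954 to 15005), and none covered 4562 bp (27.5%). The single mitochondrial peak of PCNA at 9 h was 265 bp wide, from 7775 to 8039 in MT-CO2, with a score of 38.

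The share of a list's peaks that were mitochondrial ran from 0.645 to 100%. In U2OS the share was 4.90, 2.44, 6.67 and 1.96% for γ-tubulin, 8.16, 3.03, 17.2 and 1.83% for Mcm5, 12.4, 7.92, 13.01 and 7.38% for FoxM1, and 18.6, 16.3, 100 and 18.5% for PCNA. In shTUBG U2OS it was 8.51, 24.2, 38.1 and 26.9% for γ-tubulin and 19.5, 13.7, 32 and 0.645% for PCNA. The PCNA list of U2OS at 7 h held 17 peaks, all mitochondrial, and the PCNA list of shTUBG U2OS at 9 h held 1 mitochondrial peak of 155. Each share comes from 1 pooled list, and peaks on the same molecule are not independent, so no error of the share is given.

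The share was highest at 7 h in all 6 series of lists (an antibody in a line) and differed between times (mean of 34.5% at 7 h against 12.0, 11.3 and 9.52% in asynchronous cells and at 3 and 9 h, adjusted p = 0.00732, exact permutation test within antibody and line). Without the PCNA series of U2OS, an alternative chosen after the values were seen, the range of means was 13.7 percentage points and the test no longer passed (adjusted p = 0.102, permutation test). In U2OS lists alone the range was 26.8 points (adjusted p = 0.00318) and in shTUBG U2OS lists alone 21.3 points (adjusted p = 0.611, exact permutation tests). All lists of a line and time share input samples, so the series are not independent. The p-values here do not allow for this and may be too small. The list at 7 h was also the shortest of its series in 5 of 6 series, with 17 peaks for PCNA and 29 for Mcm5 in U2OS, and the part of list length in the share was not tested. For number, covered length and width no difference between times passed the test (adjusted p = 0.542, 0.421 and 0.421, exact permutation tests).

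Within a list, mitochondrial peaks were on average wider than the other peaks outside chrM and the nuclear copy, by an amount that varied with the antibody. In the γ-tubulin and Mcm5 lists of U2OS medians were 1428 to 8188 bp on chrM and 307 to 363 bp elsewhere. In the PCNA and FoxM1 lists of U2OS with both kinds they were 358.5 to 692.5 bp and 287 to 364 bp. Over the 23 lists that held both, the median mitochondrial peak was wider in 18, with a mean difference of 1376 bp (adjusted p = 0.00012, permutation test). Its score was higher in 14 of 23 lists and lower in 9, with a mean difference of 48.4 over all of them (adjusted p = 0.0157, permutation test). This mean averages score differences from lists whose scales are not known to be common. The score difference did not pass with means in place of medians (15.5, adjusted p = 0.405, permutation test) or with lists that share input averaged first (37.4, adjusted p = 0.0938, exact permutation test). In shTUBG U2OS alone the width difference was 187 bp (adjusted p = 0.469, exact permutation test), with chrM peaks wider in 4 lists and narrower in 4. The score difference there was -4 (adjusted p = 0.813, exact permutation test). Pooled over lists, mitochondrial peaks were 200 to 10323 bp wide (median 509, 58 of 264 above 1000 bp), and other peaks had a median of 339.5 bp (224 of 2106 above 1000 bp). A mitochondrial peak held the highest score of the list in 4 of 24 lists, among them the PCNA list of U2OS at 7 h, which held no other peaks.

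The nuclear copy on chromosome 1 carried 72 peaks in 20 of the 24 lists. No peak crossed the borders of the window, and the nearest chromosome 1 peaks on either side were at 10034 to 10308 and 21745904 to 21746113. In U2OS γ-tubulin had 7, 6, 6 and 6 peaks in the copy, Mcm5 6, 6, 7 and 5, PCNA 2, 2, 0 and 1, and FoxM1 2, 2, 1 and 2. The 8 γ-tubulin and Mcm5 lists of U2OS thus held 49 of the 72 peaks, and their lowest number, 5, was above the highest of PCNA and FoxM1, 2. The means were 6.25 for γ-tubulin, 6 for Mcm5, 1.75 for FoxM1 and 1.25 for PCNA. Copy peaks made up 5.52% of the 453 γ-tubulin peaks of U2OS and 1.36% of the 369 PCNA peaks. In all, the Mcm5 lists held 98, 132, 29 and 109 peaks and the FoxM1 lists 129, 202, 123 and 244.

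**Figure D4:**
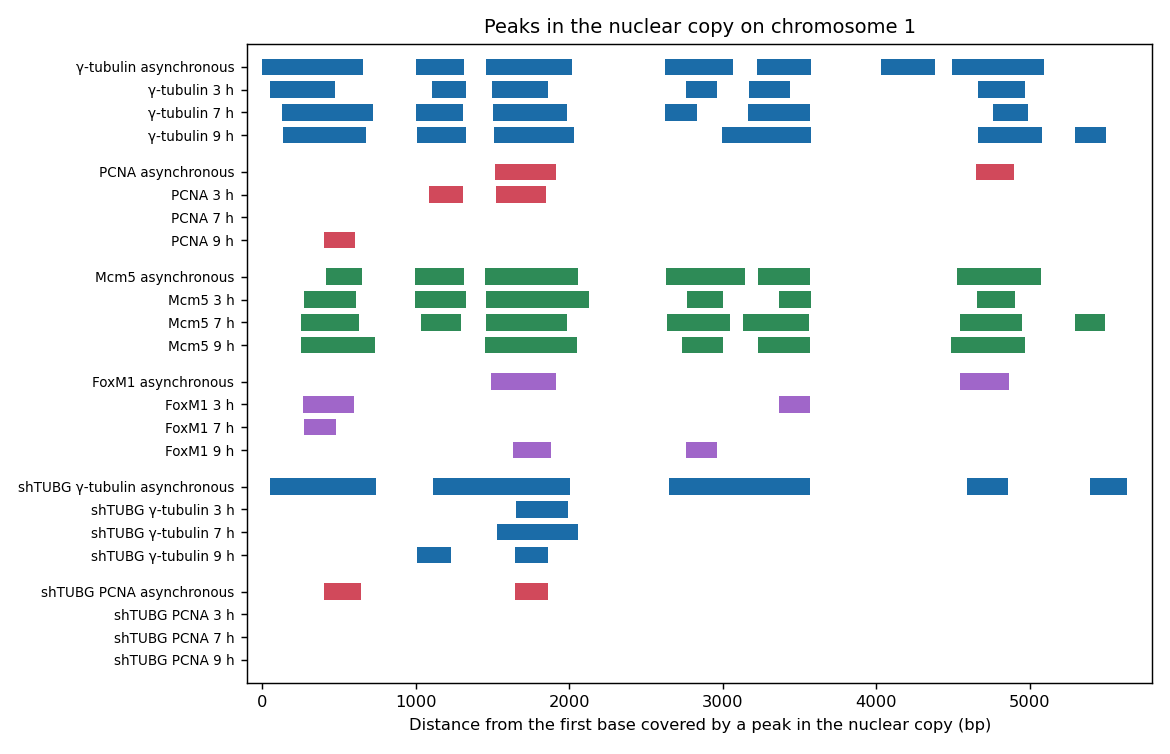
Peaks in the nuclear copy on chromosome 1 in each list (rows), as distance in bp from the first base that any of them covers (x axis), coloured by antibody. γ-Tubulin and Mcm5 lists of U2OS have 5 to 7 peaks each at recurring places, PCNA and FoxM1 lists 0 to 2, and 4 PCNA lists have none.

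The copy peaks fell into 6 sites after overlapping peaks of all lists were merged, between 564625 and 570258. The first, 564625 to 565362, was called in 13 lists. The second, 565618 to 566751, was called in 17 lists with 26 peaks, among them all 8 γ-tubulin and Mcm5 lists of U2OS and all 4 γ-tubulin lists of shTUBG U2OS. Within it, 566281 to 566475 (195 bp) was covered in all 17 lists, more than any other stretch of the copy. The third site, 567247 to 568199, and the fifth, 569115 to 569716, were each called in 11 lists. The sixth, 569919 to 570258, was called in 3 lists, for γ-tubulin at 9 h and Mcm5 at 7 h in U2OS and for γ-tubulin in asynchronous shTUBG U2OS. The fourth, 568656 to 569008, was called once, for γ-tubulin in asynchronous U2OS, with a score of 59.

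The borders of the most shared site were close between lists. For γ-tubulin in U2OS its right-hand peak lay at 566080 to 566640, 566124 to 566483, 566129 to 566608 and 566136 to 566655. For Mcm5 it lay at 566079 to 566680, 566080 to 566751, 566080 to 566612 and 566079 to 566675, so that all 4 Mcm5 peaks began within 1 bp of each other. The PCNA peaks there were 566139 to 566539 and 566148 to 566475, narrower than the γ-tubulin peak of the same time. In shTUBG U2OS the γ-tubulin peak at 9 h and the asynchronous PCNA peak had the same borders, 566272 to 566483. Copy peaks were 200 to 917 bp wide (median 338.5), with none above 1000 bp, and the widest was the γ-tubulin peak at 567277 to 568193 in asynchronous shTUBG U2OS.

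Parts of the copy were called in no list. Of the 5634 bp from the first to the last covered base, 4120 bp were covered in at least 1 list. The longest uncovered stretches inside were 566752 to 567246 (495 bp), 568200 to 568655 (456 bp) and 565363 to 565617 (255 bp).

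The copy was less covered than the mitochondrial stretch it derives from. The counterpart was taken as positions 3900 to 9800 of chrM, from the end of MT-ND1 to MT-CO3, with borders rounded to 100 bp. Peaks covered a mean of 1138 bp of the copy and 3897 bp of the counterpart, lower in the copy in 24 of 24 lists (mean difference of -2759 bp, adjusted p = 4.0e-05, permutation test). In the 8 γ-tubulin and Mcm5 lists of U2OS the copy had 1778 to 3270 bp covered and the counterpart 5616 to 5901 bp. In the 8 PCNA and FoxM1 lists these were 0 to 747 bp and 2085 to 5033 bp. Copy peaks were narrower in 18 of 20 lists that had both (mean difference of the medians -2235 bp, adjusted p = 4.0e-05, permutation test). Mitochondrial peaks kept their full width there, which can exceed the whole copy, and cut at the borders of the counterpart, an alternative chosen after the values were seen, they gave -1250 bp (adjusted p = 0.00026, permutation test). Scores were lower in the copy in 15 of 20 lists and higher in 5 (mean difference -73.0, adjusted p = 0.00409, permutation test). This mean also averages over lists whose score scales are not known to be common. With lists that share input averaged first, neither width nor score passed (adjusted p = 0.0521 and 0.0938, exact permutation tests), and in shTUBG U2OS alone the score difference was 4.

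**Figure D5:**
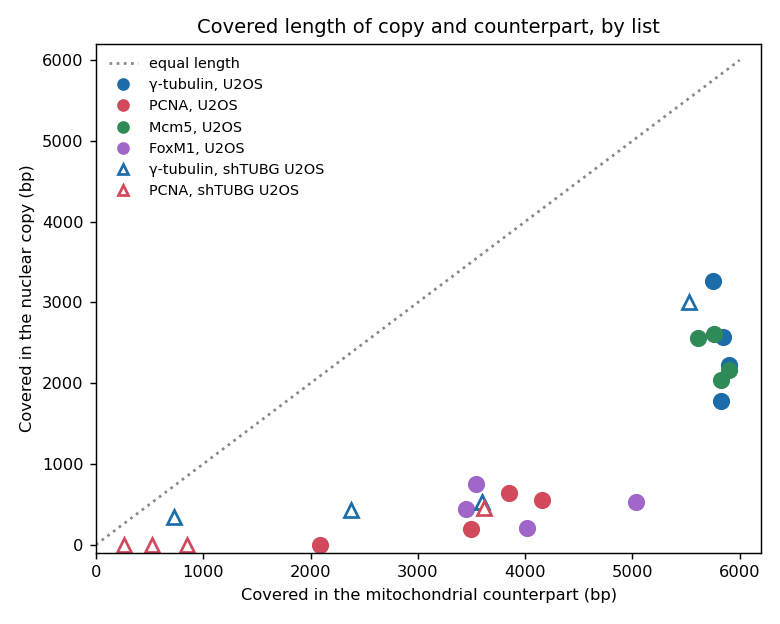
Length covered by peaks in the nuclear copy (y axis, bp) against the length covered in its mitochondrial counterpart (x axis, bp), 1 point per list, with a dotted line of equal length. All 24 points lie below the line, and the 9 lists with 5531 bp or more of the counterpart covered have 1778 to 3270 bp of the copy covered.

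Number ran differently from length. The copy had a mean of 3 peaks and the counterpart 4.92 (difference -1.92, adjusted p = 0.0781, permutation test). The 8 lists with more peaks in the copy than in the counterpart were the 8 γ-tubulin and Mcm5 lists of U2OS, where 1 to 3 wide peaks filled the counterpart. Over all lists, the 9 with more than 90% of chrM covered had 5 to 7 copy peaks each (54 in all) and the 15 with less had 0 to 2 (18 in all). How reads that match both places were assigned was not given in the sources used here, so signal from chrM and from the copy cannot be told apart.

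Fewer copy peaks were called in shTUBG U2OS, but no test of the line passed after adjustment. γ-Tubulin had 5, 1, 1 and 2 against 7, 6, 6 and 6 in U2OS, lower at all 4 times (9 against 25 peaks, p = 0.13, adjusted p = 0.25, exact permutation test). PCNA had 2, 0, 0 and 0 against 2, 2, 0 and 1 (2 against 5 peaks, p = 0.5, adjusted p = 0.569, exact permutation test). Summed over times the shTUBG U2OS lists were also shorter, and copy peaks made up 3.81% of the 236 γ-tubulin peaks in shTUBG U2OS against 5.52% of 453 in U2OS, and 0.629% of 318 PCNA peaks against 1.36% of 369. Over both antibodies there were 11 copy peaks against 30, lower in 6 of 8 pairs and higher in none (p = 0.0313, adjusted p = 0.13 over 4 tests, exact permutation test), which did not pass after adjustment. A copy peak was present in 5 of 8 shTUBG U2OS lists and 7 of 8 U2OS lists (p = 0.569, two-sided Fisher's exact test).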

How the data were processed

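ChIP-seq was described by the labels for 64 samples in 32 groups of 2. The authors deposited 24 BED lists, 1 per antibody, time and line, each named by the labels for both samples of its group. Start and end positions in the deposited lists were read as BED positions and are printed counted from 1. Each peak's deposited score is a whole number whose meaning was not stated. Scores were therefore subtracted only within a list, but the tests averaged these differences over lists. Per the labels and the submitters' processing notes, reads were handled with Bowtie2 2.1.0, SAMtools 1.7-13 and MACS2 on hg19. How samples and input were combined, and how duplicate and multiply matching reads were treated, was not given in the sources used here. Read depth is unknown, so no precision could be derived from it, and input samples were not used here.

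From the lists, number, covered length, median width and share of the list's peaks were computed in Python 3.11.15 with numpy 2.4.6 and scipy 1.17.1 (figures, matplotlib 3.10.9). Lists were compared by two-sided sign-flip permutation tests (exact below 10 lists, otherwise 100000 resamples with a smallest p of 1e-05), exact permutation within blocks, and Fisher's exact test, with Benjamini-Hochberg adjustment within each family and a threshold of 0.05. Tests were checked on simulated data. The study's methods state that separate cultures were used, but the lists do not hold the samples apart. No hg19 annotation was at hand: mitochondrial genes came from a textbook map with borders rounded to 100 bp, whose 15 gene names were found in the same order in RefSeq, and sequences came from RefSeq tables on GRCh38.p14. Named were the stretches in the most and fewest lists, the genes under them, peaks of the nuclear copy, the widest and highest-scoring peak, and each list's values; copy peaks are given by site. Members, lists and rules were chosen with earlier results of these data known. Alternatives were peaks at or above the list's median score, merging within 1000 bp, leaving out a time or a line, averaging lists that share input, means, shifted map or window borders, counterpart peaks cut at its borders, and leaving out the PCNA series of U2OS.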

Additional observations from a re-analysis of the deposited data

Results flagged for a closer look

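The change in the number of mitochondrial peaks on lowering γ-tubulin went in opposite directions for the antibodies at every time. The mean change in shTUBG U2OS was 8.5 peaks for γ-tubulin, higher in 4 of 4 times, and -11.75 peaks for PCNA, lower in 4 of 4 times. The difference between the changes had the smallest p that 4 pairs allow (p = 0.13, exact permutation test). Covered length did not share this pattern, being lower for γ-tubulin in 4 of 4 pairs and for PCNA in 3 of 4, and with peaks within 1000 bp merged the PCNA change in number was 1.25. Lists also differed in length. As a share of the list, mitochondrial peaks were higher in 4 of 4 pairs for γ-tubulin and lower in 3 of 4 for PCNA. The cause was not tested.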

How the results depend on the processing

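No paired analysis was possible because both labelled samples of a group share 1 list, so no replicate number reaches the values and none could be left out. This holds for replicate numbers, and lists of the lines were paired by antibody and time. Over 38 results, 172 alternative values had the direction of the reported value, where it had any, and fell on its side of the threshold. Of the others, 11 turned direction, 14 lost a call and 4 gained a call. The cause of these changes was not tested unless named. Line tests of a single antibody, and of γ-tubulin minus PCNA, had too few pairs to pass, so their side was fixed. A range of means between antibodies or times has no direction, so only its call could change. The 172 values include both kinds, so their number does not measure how stable the results are. Merging peaks within 1000 bp gave a line difference in number of 1.75 over both antibodies and 1.25 for PCNA, in covered length of -45.0 points and in width of -8502 bp, and a γ-tubulin minus PCNA difference in covered length of 22.5 points. It left ranges between antibodies of 1.25 peaks, 9.52 points of coverage, 5966 bp of width and 25.2 points of share, none past the threshold. When low-scoring peaks (under the median of their list) were dropped, ranges of 4.75 peaks and 27.7 points of share no longer passed. Without the 7 h lists the line difference in share was 5.13 points. The range of share between times was 21.3 points in shTUBG U2OS and 13.7 without the PCNA lists of U2OS, and neither passed. Control region minus protein genes was 0.21 points without low-scoring peaks, 1.94 in U2OS and 1.79 with borders moved right, and in U2OS rRNA minus protein genes was -1.86 and control region minus rRNA genes 3.80. Against other peaks, the width difference was 187 bp and the score difference -4 in shTUBG U2OS, and the score difference was 37.4 with lists averaged by input and 15.5 with means. For copy against counterpart, averaging by input gave -2.22 peaks (past the threshold), -1552 bp and -46.6 score units (not past), and shTUBG U2OS alone gave -3.13 peaks (past), -228 bp and a score difference of 4 (not past). Leaving out 1 time changed no call between antibodies or lines. Unknown read depth limits comparison between lists.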
